A study of Homo sapiens with 6 samples.

Results

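The genes described here are the writers and erasers of DNA methylation in WM164, a BRAF-mutant human melanoma line from a lymph node metastasis, measured on 6 whole-transcript expression arrays. The members are 9 named genes (UHRF1, UHRF2, DNMT1, DNMT3A, DNMT3B, TET1, TET2, TET3 and TDG) of 18417 genes tested. Each was read from the probe set that carries its symbol alone and, where there were several, from whichever was brightest on average over the arrays. All 9 had such a probe set, and no filter on low values was applied. The induced drug tolerant cells (IDTC, 3 samples) were WM164 given PLX4032 (vemurafenib, an inhibitor of mutant BRAF) at 500 nM over 16 days, with medium and drug renewed every 3 days. The Parent group held 3 samples of the same line given DMSO, for a time that the labels do not state. Both groups carry the BRAF mutation of the line, and the labels give PLX4032 as the difference between them. RNA was prepared separately for every sample, but no label says whether the cultures were independent experiments, so the p-values rest on a spread between samples that may be technical in part. In a bulk sample, fewer cells of a kind (such as cells in S phase) and less RNA per cell cannot be told apart.

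Cytosine methylation at CpG sites is copied onto the new DNA strand behind the replication fork. UHRF1 reads hemimethylated CpGs and modified histone H3, ubiquitinates histone H3 and so recruits DNMT1, the maintenance methyltransferase. UHRF2 is its close paralogue, which does not replace it in maintenance. DNMT3A and DNMT3B set methylation de novo. The TET dioxygenases oxidise methylcytosine, and TDG removes the further oxidised forms, which base excision repair then fills with unmethylated cytosine. Loss of hydroxymethylcytosine, the first TET product, is a known feature of melanoma.

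UHRF1 and DNMT1, which copy methylation at the replication fork, fell in the drug-tolerant cells. The fall was 5.75-fold for UHRF1, on the brighter of its 2 probe sets, and 2.26-fold for DNMT1. UHRF2 (log2 fold change -0.41) and the glycosylase gene TDG (-0.68) fell, TET2 rose 1.59-fold and DNMT3A rose by 0.20 on the log2 scale, a call that did not survive every alternative. DNMT3B, TET1 and TET3 did not pass the test. In all, 4 of the 9 genes fell and 2 rose at an adjusted p under 0.05, where 24.9% of all genes tested fell, 21.7% rose and 46.6% were called in either direction. The median log2 fold change was -0.07 over the 9 genes and -0.01 over all genes. A call was thus common in this comparison. A fall of 2-fold or more was called for these 2 of the 9 genes and for 5.4% of all genes. Only 0.299% of genes had a lower fold change than UHRF1, against 3.77% for DNMT1.

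The annotated starts of the 2 genes with the deepest falls are shown because they hold an exact match to the E2F spellings searched. No start of the other 7 genes holds one. E2F factors drive transcription at entry into S phase, and the motif was chosen with the falls of these genes known. Each window runs from 250 bases before to 50 bases after an annotated start in RefSeq's annotation of GRCh38.p14, 5′ to 3′ on the strand of the gene, and capitals mark the E2F octamer. UHRF2 is shown beside its paralogue as a start without an exact match.
UHRF1, first start, chr19:4909251-4909550, plus strand: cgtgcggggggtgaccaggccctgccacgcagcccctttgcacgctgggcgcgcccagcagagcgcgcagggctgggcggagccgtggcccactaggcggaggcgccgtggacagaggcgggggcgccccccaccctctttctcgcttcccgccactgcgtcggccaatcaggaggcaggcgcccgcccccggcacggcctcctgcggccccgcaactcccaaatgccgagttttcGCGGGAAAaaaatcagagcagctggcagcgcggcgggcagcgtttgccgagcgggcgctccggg
UHRF1, second start, chr19:4909894-4910193, plus strand: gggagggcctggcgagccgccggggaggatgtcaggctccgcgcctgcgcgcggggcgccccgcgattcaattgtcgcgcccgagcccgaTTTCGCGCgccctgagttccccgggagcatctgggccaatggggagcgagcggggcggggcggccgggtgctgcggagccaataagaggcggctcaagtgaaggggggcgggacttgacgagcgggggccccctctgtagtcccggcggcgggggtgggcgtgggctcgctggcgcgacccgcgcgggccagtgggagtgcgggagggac
DNMT1, chr19:10194904-10195203, minus strand: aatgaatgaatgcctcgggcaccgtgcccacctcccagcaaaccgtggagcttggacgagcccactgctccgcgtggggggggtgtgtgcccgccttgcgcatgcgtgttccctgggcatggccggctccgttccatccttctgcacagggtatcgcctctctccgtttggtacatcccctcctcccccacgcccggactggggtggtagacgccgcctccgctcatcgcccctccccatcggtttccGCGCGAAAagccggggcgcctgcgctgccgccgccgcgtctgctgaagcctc
UHRF2, chr9:6412949-6413248, plus strand: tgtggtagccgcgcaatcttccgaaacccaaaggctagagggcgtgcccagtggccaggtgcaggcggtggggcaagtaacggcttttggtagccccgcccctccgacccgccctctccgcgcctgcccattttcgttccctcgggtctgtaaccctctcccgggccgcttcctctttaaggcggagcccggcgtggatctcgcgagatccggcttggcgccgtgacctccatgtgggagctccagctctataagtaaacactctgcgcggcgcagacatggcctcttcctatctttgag

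The 4 spellings searched on both strands were TTTCCCGC, TTTCGCGC, TTTGCCGC and TTTGGCGC, and only exact matches were counted. The UHRF2 window holds CTTGGCGC, which differs from TTTGGCGC in its first letter only, so its lack of a match rests on that rule. At the first UHRF1 start the octamer lay at bases -14 to -7 (read as GCGGGAAA), at the second at -160 to -153 (TTTCGCGC), and at DNMT1 at -2 to 6, across the start (GCGCGAAA). The third annotated UHRF1 start had no match, and its window shares bases with that of the second. Of all 35116 windows of this length, 3.31% held the octamer, as did 3 of the 20 windows of the 9 genes. So did 12 of 27 windows of a list of replication genes, which cover 22 of its 25 genes. CCAAT boxes (CCAAT on either strand) were found at both UHRF1 starts with an octamer and at starts of DNMT3B, TDG, TET1 and TET3, 7 of the 20 windows, close to the 34.6% of all windows that held one. The windows of the 9 genes held a median of 26 CpGs, with 3 at DNMT3B and 46 at the third starts of UHRF1 and DNMT3A, against a median of 14 in all windows. A match is a run of letters and was not tested as a binding site.

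**Figure D1:**
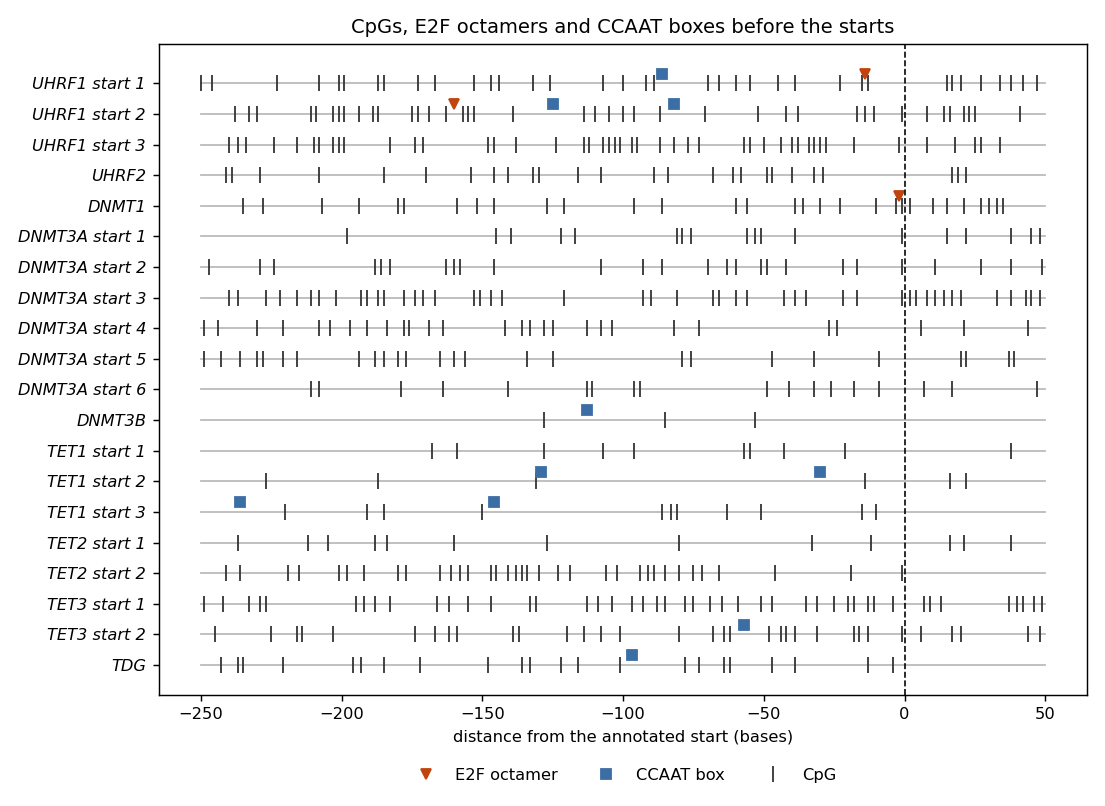
CpGs (ticks), E2F octamers (triangles) and CCAAT boxes (squares) in the windows around each annotated start of the 9 genes, by distance from the start in bases. Triangles stand at 2 of the 3 UHRF1 starts and at the DNMT1 start, and at none of the other starts.

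UHRF1, the reader of hemimethylated DNA, had log2 expression values of 7.18, 7.12 and 6.79 on the IDTC arrays, against 9.49, 9.59 and 9.58 on the Parent arrays. Every IDTC array lay at least 2.31 below every Parent array, and the third IDTC array was the lowest. The log2 fold change was -2.52 ± 0.11 (SE, adjusted p = 1.96e-06, 95% interval -2.77 to -2.27). A second probe set with the UHRF1 symbol alone did not show this. Probe set 8032922 read 5.80, 5.18 and 5.84 on the IDTC arrays and 5.78, 5.86 and 5.79 on the Parent arrays. Its groups overlapped, with a log2 fold change of -0.20 ± 0.18 (adjusted p = 0.436 among all probe sets, of which 35.7% were called), and without IDTC 2, its lowest array, the difference was 0.01. The platform annotation ties this dim probe set to 3 accessions, none of them a RefSeq mRNA, and ties the main UHRF1 probe set, 8024900, to 11 that include RefSeq mRNAs. The mean of both probe sets gave a log2 fold change of -1.36, but whether 8032922 measures UHRF1 mRNA is not known, so that mean may not be a value of UHRF1 mRNA.

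DNMT1, the maintenance methyltransferase that UHRF1 recruits, read 9.02, 9.04 and 8.95 on the IDTC arrays, against 10.22, 10.18 and 10.14 on the Parent arrays. The groups were 1.10 apart at their nearest, far more than the range within either. The log2 fold change was -1.17 ± 0.05 (adjusted p = 2.79e-06, 95% interval -1.30 to -1.05). UHRF2 read 7.70, 7.70 and 7.49 on the IDTC arrays, against 8.04, 8.00 and 8.06 on the Parent arrays. Its values on IDTC 1 and IDTC 2 were identical (7.69584). All 3 IDTC arrays were below the Parent arrays, for a log2 fold change of -0.41 ± 0.07 (adjusted p = 0.0024).

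Among the de novo methyltransferases, DNMT3A read 8.04, 8.06 and 8.05 on the IDTC arrays, against 7.89, 7.77 and 7.88 on the Parent arrays. The groups did not overlap but were only 0.15 apart, and the log2 fold change was 0.20 ± 0.06 (adjusted p = 0.0198). This call was lost without Parent 2 (0.16, adjusted p = 0.0715), without IDTC 2 (0.20, adjusted p = 0.0595) and after aligning the array medians (0.19, adjusted p = 0.0711). DNMT3B read 6.41, 6.47 and 6.48 on the IDTC arrays, against 6.40, 6.42 and 6.35 on the Parent arrays, with overlapping groups. Its log2 fold change was 0.07 ± 0.05 (adjusted p = 0.359), with a 95% interval of -0.06 to 0.19. The value of DNMT3B ranked above only 41.2% of the genes on these arrays, that of TET1 above 47.5% and that of TDG above 48.6%. The deposited table has no detection call.

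Of the dioxygenases, TET2 was the one that was called. Its probe set 8096675 read 8.93, 8.86 and 8.78 on the IDTC arrays, against 8.30, 8.04 and 8.23 on the Parent arrays. Every IDTC array exceeded every Parent array, for a log2 fold change of 0.67 ± 0.08 (adjusted p = 0.000352). A second TET2 probe set, 8096669, read 8.20, 8.10 and 8.02 on the IDTC arrays and 7.51, 7.46 and 7.56 on the Parent arrays. It moved alike, by 0.60 ± 0.07 (adjusted p = 0.000726 among all probe sets), and both are tied to a common RefSeq mRNA. TET1 read 7.01, 7.02 and 6.63 on the IDTC arrays, against 6.90, 6.81 and 6.65 on the Parent arrays. Its groups overlapped, with a log2 fold change of 0.10 ± 0.12 (adjusted p = 0.545, 95% interval -0.18 to 0.38). It was 0.23 without IDTC 3 (adjusted p = 0.0676) and 0.03 without IDTC 2 or Parent 3. TET3 read 7.90, 7.94 and 7.59 on the IDTC arrays, against 7.94, 7.81 and 7.88 on the Parent arrays. Its log2 fold change was -0.07 ± 0.10 (adjusted p = 0.633, 95% interval -0.30 to 0.17), and 0.04 without IDTC 3.

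TDG, the glycosylase that completes the TET pathway, read 6.72, 6.57 and 6.41 on the IDTC arrays, against 7.34, 7.51 and 6.90 on the Parent arrays. All IDTC arrays were lower, but Parent 3 came within 0.18 of them, and the spread within Parent (SD 0.315, n = 3) was the widest of the 9 genes. The log2 fold change was -0.68 ± 0.16 (adjusted p = 0.00947), between -0.86 without Parent 3 and -0.55 without Parent 2. IDTC 3 was the lowest IDTC array for 7 of the 9 genes, all but DNMT3A and DNMT3B. The share of all genes for which IDTC 3 was the lowest was not counted. Without IDTC 3 the log2 fold changes were -2.40 for UHRF1, -0.34 for UHRF2, -1.15 for DNMT1, -0.60 for TDG and 0.71 for TET2. All of these were still called. The groups did not overlap for 6 of the 9 genes, where 54.1% of all genes did not.

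**Figure D2:**
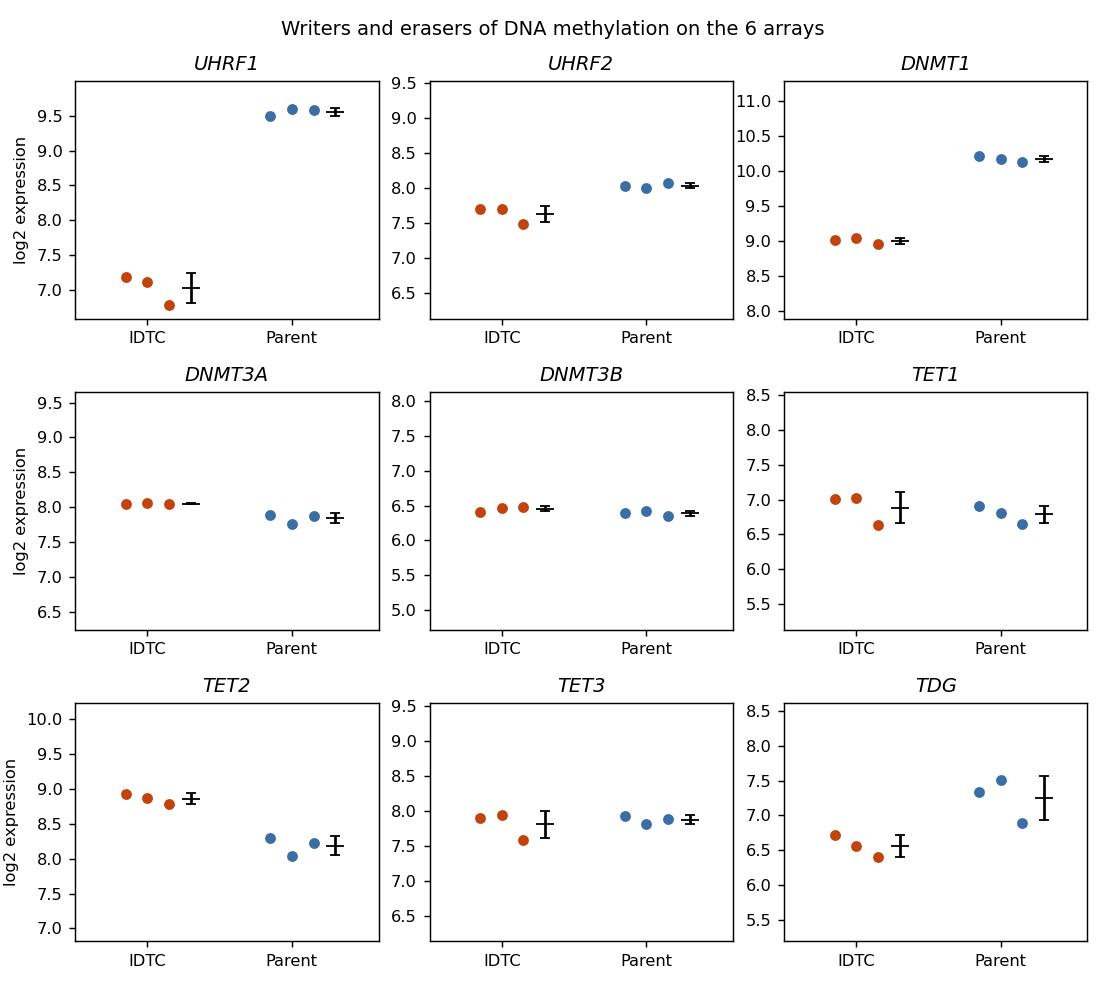
Log2 expression of the 9 genes on each array, IDTC (red) left of Parent (blue), with the mean and SD of the 3 arrays of a group as a bar. All panels span the same range of log2 units, so the gap of UHRF1 (nearest arrays 2.31 apart) can be set against that of DNMT3A (0.15).

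**Figure D3:**
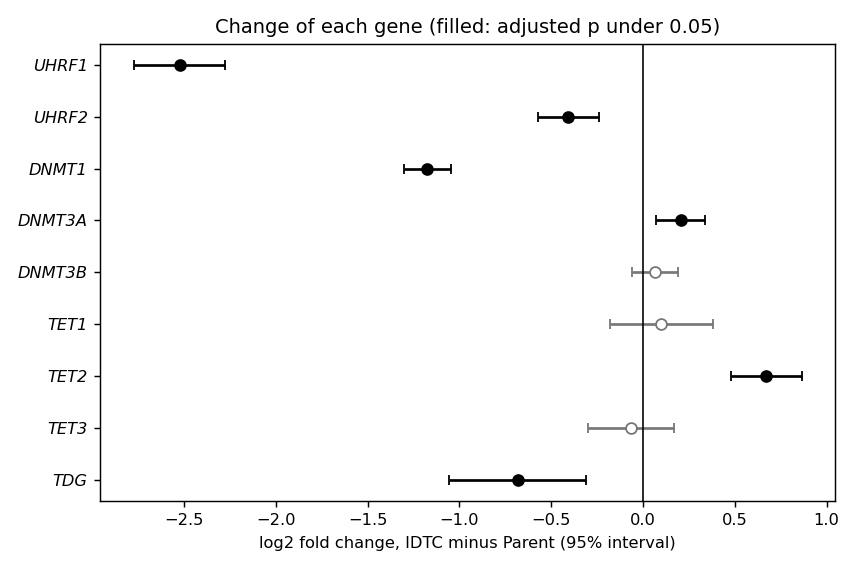
Log2 fold change (IDTC minus Parent) of each gene with its 95% interval, filled where the adjusted p is under 0.05. UHRF1 (-2.52) and DNMT1 (-1.17) lie farthest below 0, TET2 (0.67) lies farthest above, and the intervals of DNMT3B, TET1 and TET3 include 0.

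Whether paralogues and partners changed by different amounts was tested on the difference of both genes on each array, over 6 pairs. The log2 fold change of UHRF1 was lower than those of UHRF2 and DNMT1 (differences of -2.12 and -1.35). That of TET1 minus that of TET2 was -0.57, that of TET3 minus that of TET2 was -0.74, that of TET1 minus that of TET3 was 0.17 and that of DNMT3B minus that of DNMT3A was -0.14. In each pair the differences on the IDTC arrays did not overlap those on the Parent arrays. The smaller differences leaned on single arrays, TET1 minus TET3 being 0.10 without Parent 3 and 0.21 without Parent 2, and DNMT3B minus DNMT3A being -0.08 without Parent 2 and -0.18 without Parent 3. The exact permutation test (2-sided) gave p = 0.1 for every pair, also after Benjamini-Hochberg adjustment over the 6 pairs, which is the smallest value that 3 arrays against 3 allow, so no pair could pass a threshold of 0.05. With the mean of both UHRF1 probe sets the first 2 differences were -0.96 and -0.19, so the size of the difference between UHRF1 and DNMT1 rests on the brighter UHRF1 probe set.

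UHRF1 and DNMT1 act at the replication fork, and the genes of replication fell with them. All 25 genes of the replication list fell (median log2 fold change -1.65), 24 of them by 2-fold or more. Of all genes, 24.9% fell, and 5.4% fell by 2-fold or more. The log2 fold changes were -3.55 for the origin licensing gene CDC6, -2.62 for the origin recognition gene ORC1, -2.45 for POLE2, which encodes a subunit of polymerase epsilon, and -2.41 for CDC45, part of the active helicase. By point estimate UHRF1 fell more than 23 of the 25 genes, the exceptions being CDC6 and ORC1, and DNMT1 fell less than 23 of them. The order among close genes is not settled. The 95% interval of UHRF1 overlapped those of ORC1, POLE2, CDC45, MCM10 and GINS2, and that of DNMT1 overlapped those of several genes. With the mean of the probe sets of each gene, UHRF1 fell more than 8 of the 25. The part of a smaller S phase share in the UHRF1 and DNMT1 values was not tested. The 12 partners of the methylation machinery gave 9 falls and 1 rise, and 2 missed the threshold (median -0.61). Of the partners 83.3% were called, against 46.6% of all genes. CDCA7, which activates the remodeller HELLS, fell by 1.92 on the log2 scale. HELLS, which opens nucleosomal DNA to methylation, fell by 1.34 and was at 6.08 ± 0.01 in IDTC, against 7.42 ± 0.02 in Parent (SD, n = 3 each). PCNA, the sliding clamp that binds DNMT1, fell by 1.78 and the corepressor gene TRIM28 fell by 0.78. The histone methyltransferase gene EHMT2 was the one that rose, by 0.19, and that call was lost after aligning the array medians and without Parent 2, Parent 3 or IDTC 2.

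The 9 measured genes on a list of readers of methylated CpGs and their relatives split into 3 that rose, 4 that fell and 2 that missed the threshold (median 0.04). Of these 9 genes 77.8% were called, against 46.6% of all genes. The zinc finger reader gene ZBTB4 rose by 1.05 ± 0.05 and the MBD family genes MBD5 and MBD6 by 0.70 and 0.52, although these MBD proteins are not established readers of methylated CpG. ZBTB38, a zinc finger reader related to ZBTB4, fell by 0.47, and MBD2 and MBD4, which bind methylated CpG, fell by 0.46 and 0.41. The fourth gene that fell was MBD3 (-0.38), whose protein binds methylated CpG weakly. Apart from MBD5 and MBD6, 1 gene rose, 4 fell, and MBD1 and ZBTB33 were not called. The ZBTB4 values were 8.48 ± 0.06 in IDTC and 7.43 ± 0.0046 in Parent (SD, n = 3 each), without overlap.

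Genes of base excision repair and active demethylation, the pathway of TDG, were called about as often as all genes. Among 13 of them, 3 rose and 3 fell, with 7 short of the threshold (46.2% called, against 46.6% of all genes, median 0.07). The uracil glycosylase gene UNG fell by 1.20 ± 0.08, the glycosylase genes NEIL3 (-0.66) and NEIL2 (-0.28) fell, and POLB, the polymerase that fills the gap, rose by 0.62 ± 0.08. Enzymes that make or use oxoglutarate, a cofactor of the TET enzymes, subunits of succinate dehydrogenase, and partners of TET proteins or their relatives gave 4 higher, 2 lower and 5 not called of 11 (median -0.13). Their share called, 54.5%, was near the 46.6% of all genes. OGT, which adds N-acetylglucosamine to proteins and binds TET2 and TET3, rose by 0.89, and CXXC5, a CXXC domain protein related to the TET2 partner CXXC4, rose by 0.91. The isocitrate dehydrogenase gene IDH1 rose by 0.38, and IDH3A, which encodes a subunit of the mitochondrial NAD-dependent enzyme, fell by 1.22. SDHC, a subunit of succinate dehydrogenase, fell by 0.22.

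In the cycle that supplies methyl groups, 15 genes gave 7 falls and 3 rises, and 5 missed the threshold (median -0.17). Of these 15 genes 66.7% were called, against 46.6% of all genes. SHMT1 and MTHFD1 handle folate one-carbon units, and they fell by 1.23 and 1.00. SHMT2 of the same list rose by 0.45. TYMS, which makes thymidylate for DNA synthesis, fell by 1.19. AHCYL2, an adenosylhomocysteinase-like gene, rose by 1.56 ± 0.06, whereas AHCY, the hydrolase that removes the product inhibitor of methyltransferases, fell by 0.53. MAT2A, which makes S-adenosylmethionine, had a log2 fold change of -0.06 and was not called.

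Many germline genes are kept silent by promoter methylation in somatic cells, and imprinted genes are expressed from a single parental allele under the control of methylation. Of 22 germline and cancer-testis genes, 5 fell, 1 rose and 16 were not called (27.3% called, against 46.6% of all genes, median 0.00). Only 6 of the 22 had a mean level above the median of all genes. Without a detection call, an unexpressed gene and an unchanged one cannot be told apart here. The melanoma antigen genes MAGEA1 (-1.75), MAGEA4 (-1.61) and MAGEB2 (-1.20) fell, and the antigen gene PRAME rose by 0.96 and was at 11.45 ± 0.02 in IDTC, against 10.49 ± 0.03 in Parent. MAGE genes have near-identical copies, which makes the values of single members uncertain. Among 15 imprinted genes there were 4 falls, 3 rises and 8 genes short of the threshold (median -0.14). Their share called, 46.7%, was that of all genes (46.6%). PHLDA2, a growth-restraining gene of the placenta, fell by 2.56 ± 0.11, PEG10, a retrotransposon-derived gene, fell by 1.05, NDN fell by 0.36 and SGCE, a neighbour of PEG10, rose by 0.59. NDN had an identical value, 5.87, on every IDTC array. Another gene of the list read this value on an array of each group, so it may not be a measured level. No methylation was measured in these samples.

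**Figure D4:**
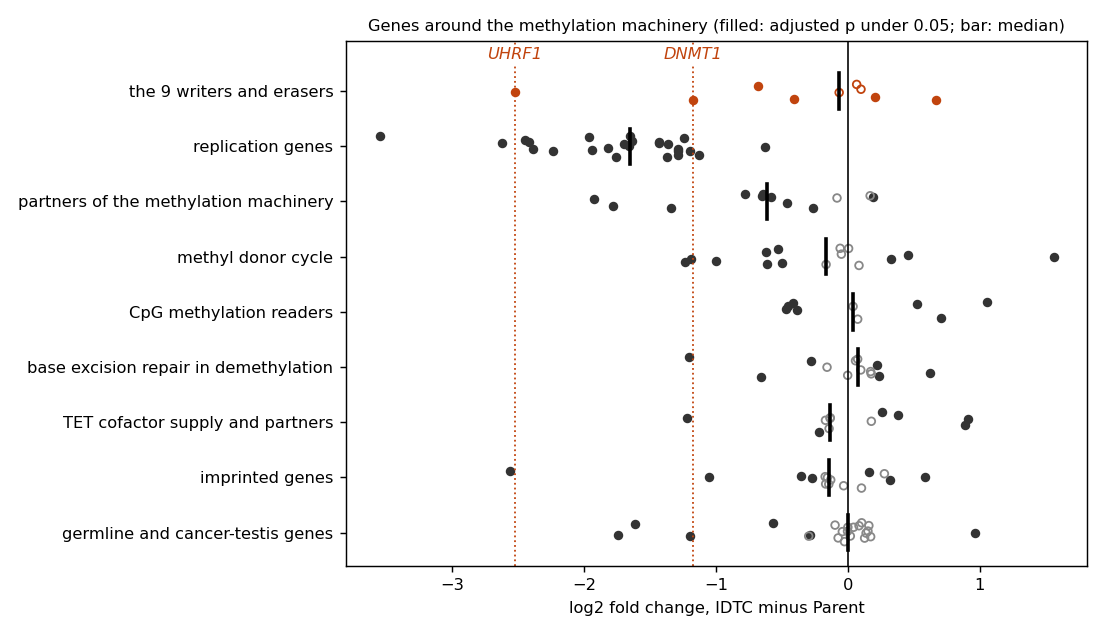
Log2 fold change (IDTC minus Parent) of each gene of the 9 writers and erasers (red) and of 8 lists around them, filled where the adjusted p is under 0.05, with the median of each list as a bar and dotted lines at UHRF1 and DNMT1. All 25 replication genes lie below 0 (median -1.65), whereas the readers (median 0.04) lie on both sides.

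The genes whose pattern was nearest to those of UHRF1 and TET2 were found by the root mean square difference over the 6 arrays, each gene centred on its own mean. For UHRF1 these were INPP5F (0.045 log2 units), CDC45 (0.087), CGAS (0.093), ITIH5 (0.093) and USP53 (0.095), of which CDC45 is in the replication list. For TET2 they were CDON (0.017), HIBCH (0.029), STX8 (0.033), STX17 (0.034) and TEX9 (0.035). With 6 arrays in 2 groups, this measure compares mostly the size of the difference between the groups.

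The arrays had medians of 6.29 to 6.36 in IDTC and 6.25 to 6.32 in Parent. Their interquartile ranges were 3.31 to 3.49 in IDTC and 3.51 to 3.60 in Parent, without overlap. IDTC 3 had the narrowest range and the highest median. Arrays correlated at r = 0.995 to 0.998 within groups and 0.953 to 0.957 between them (18417 genes, which are not independent replicates). Of 7 melanocyte markers, 5 rose, 1 fell and MITF was not called (85.7% called, against 46.6% of all genes). The mean of the list was 10.99 to 11.16 on the IDTC arrays, against 10.15 to 10.19 on the Parent arrays. PMEL, the melanosome matrix gene, was at 13.40 ± 0.04 in IDTC and 12.52 ± 0.02 in Parent, TYRP1, TYR and MLANA rose by 2.89, 1.20 and 1.45, and the glial and melanocyte marker S100B fell by 0.85. Of markers of other cells, none of 6 keratinocyte and none of 7 endothelial genes was called by limma. None of these 13 had an unadjusted p under 0.05, KRT14 and DSC3 differing by 0.08 and 0.18 and KDR and PLVAP by -0.12 and -0.23. Of 9 fibroblast genes (33.3% called) LUM (-0.89) and PDGFRA (-0.28) fell and FAP rose by 0.26. The mean of the list was 5.79 to 5.86 on the IDTC arrays and 5.86 to 5.96 on the Parent arrays. Of 8 immune genes LYZ (-3.03), FCER1G (-2.13) and CD68 (-0.76) fell and MS4A1 rose by 0.37. The mean of that list was 5.35 to 5.51 on the IDTC arrays and 6.09 to 6.11 on the Parent arrays, while the leukocyte gene PTPRC was at 3.81 ± 0.12 in IDTC and 3.67 ± 0.04 in Parent. The calls of FAP and MS4A1 were lost under several alternatives. The part of these markers in the values of the 9 genes was not tested.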

How the data were processed

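The authors deposited a table of log2 expression values for 33297 probe sets on 6 arrays. Per the submitters' processing notes the tools were Affymetrix Expression Console, RMA and Partek 6.6, with no statement of which did which step, and no genome build is given in the sources used here. The deposited log2 values have no detection call, so the change of a dim gene may be understated, and the number of arrays limits the precision. The platform annotation gave 1 symbol to 19460 probe sets, several to 1754 and listed none for 12083. No probe set with several symbols held a member. From these values differences (IDTC minus Parent) were fitted with limma 3.58.1 in R 4.3.3 (lmFit, eBayes, 2-sided, no covariates) over 18417 genes, 1 probe set each, or over all probe sets where stated, with Benjamini-Hochberg adjustment and a threshold of 0.05. Rose and fell are used for calls, and errors of fold changes are moderated standard errors. The members and the 13 gene lists were chosen with earlier results of these data known. Lists are described by counts and medians, with no set test. The genes named were the 9 members, up to 4 called genes with the largest change of each list (2 where none was called) and the 5 genes nearest in pattern to UHRF1 and to TET2. EHMT2, AHCY, MAT2A, MBD1, MBD2, MBD3, MBD4, ZBTB33, SDHC, GNAS, MITF, S100B, PTPRC, MCM10, GINS2 and SHMT2 were added once their values were known. The fit was tested on simulated data with independent samples and a small share of changed genes. That run does not give the error rate of the calls here. Promoter windows came from RefSeq's annotation (GRCh38.p14), in which all 9 members were matched by symbol. Alternatives covered the scaling, a filter on dim genes, the probe sets used, the variance prior, the replicate number as a block and leaving out each array. One of them, aligning the array medians over the 18417 genes tested rather than over all probe sets, was added after seeing the data.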

Additional observations from a re-analysis of the deposited data

How the results depend on the processing

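The falls of UHRF1, UHRF2, DNMT1 and TDG and the rise of TET2 were called under all 14 alternatives, with UHRF1 between -2.60 and -1.36 (-1.36 being the mean of both probe sets), DNMT1 between -1.20 and -1.11 and TET2 between 0.59 and 0.73. DNMT3A was not called after aligning the array medians (0.19, 1 gene of the 9 higher) and ranged from 0.16 to 0.23 when single arrays were left out (1 to 2 genes higher). When single arrays were left out, TET3 ranged from -0.13 to 0.045 and UHRF1 probe set 8032922 from -0.32 to 0.0093.

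Counts of short lists moved more. Genes called higher among the partners were 0 after aligning array medians and 0 to 1 without single arrays. They were 2 after quantile normalization, with the trended prior or with medians aligned over the genes tested. Repair genes called higher were 5 after quantile normalization, without the dimmest 40% of genes or with the trended prior. They were 6 with medians aligned over the genes tested. Genes of the oxoglutarate, succinate and TET partner list called lower were 4 without the dimmest genes or with the trended prior. They were 1 with the mean of probe sets or medians aligned over the genes tested, and 1 to 3 without single arrays. Imprinted genes called lower were 7 after quantile normalization, 2 without the dimmest genes and 3 to 7 without single arrays. Those called higher were 2 whichever array was left out, since GNAS (0.16, adjusted p = 0.0357 with all arrays) lost its call each time. Fibroblast markers called higher were 0 after quantile normalization or without the dimmest genes and 0 to 1 without single arrays, and 1 was lower without the dimmest genes. Immune markers called higher were 0 after quantile normalization, without the dimmest genes or with all probe sets fitted, and 0 to 1 without single arrays, and 1 was lower without the dimmest genes. Endothelial markers had 1 lower gene after quantile normalization, and keratinocyte markers 0 to 1 higher and 0 to 1 lower without single arrays. The causes were not tested, beyond the smaller number of genes after the filter.

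Over all genes, 3996 were higher and 4592 lower. These counts were 3665 and 4693 after aligning medians over all probe sets, and 4846 and 4017 after aligning medians over the genes tested. Same-numbered arrays of both groups had deviations correlated at 0.31, -0.19 and 0.26. Differently numbered ones ranged from -0.47 to 0.37, which spans these values, so the numbers were not taken as pairs. The replicate block gave 4148 higher and 4707 lower genes and changed no call of the 9 genes (UHRF1 -2.52, DNMT3A 0.20). For the 6 gene pairs the permutation test cannot pass 0.05 under any alternative, and the fits with all probe sets and with the trended prior do not apply to it.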
